A study of Mus musculus with 7 samples.

Results

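The genes examined here are the 7 myogenic regulators Myod1, Myf5, Myf6, Myog, Pax3, Pax7 and Mef2c, chosen by name as transcription factors of skeletal muscle formation. They were placed in 1 list of lamin-associated domains (LADs), the stretches of chromatin that lie against the nuclear lamina under the nuclear envelope. All 7 were found among the 21122 protein-coding genes that lie between the first and the last LAD of their chromosome. The study used CUT&RUN, in which an antibody guides a nuclease to its target on chromatin and the cut DNA is sequenced, in mouse embryonic fibroblast lines (iMEF) derived separately from 1 mouse colony. Of its 7 libraries, Lamin B1 and control IgG had 2 each, H3K14ac had 1, and H3K9me2 had 1 with each of the antibodies ab1220 and 39041. Each reaction held 500000 cells, bound whole for Lamin B1 and as nuclei for the histone marks. All libraries carry the same cell line label with no treatment or genotype, and wild type is named only in the name of the LAD list. The list is a merged Lamin B1 result of 1437 domains without signal values, so read depth is unknown and no value below has a replicate error or a p-value. It holds no expression values, so the fibroblast label could not be checked with marker genes, and whether any of the 7 genes was transcribed was not measured.

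Skeletal muscle identity is set by basic helix-loop-helix (bHLH) factors that bind E-boxes together with widely expressed bHLH partners. Myf5 and Myod1 commit cells to the muscle lineage, Myf6 (MRF4) acts in commitment and in fibres, and Myog drives terminal differentiation. Pax3 and Pax7 are paired-box factors upstream of them, in embryonic progenitors and in satellite cells, the stem cells of muscle. Mef2c is a MADS-box factor that works with the bHLH proteins at muscle promoters. Fibroblasts normally keep this programme silent, and forced Myod1 is known to convert them to muscle cells. Genes at the lamina are often silent, but a silent gene need not lie there.

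The 7 genes fell into all 3 placements. Myf5 and Myf6 were inside a LAD, Pax3 and Mef2c were cut by a LAD border, and Myod1, Myog and Pax7 were outside. Thus 4 of 7 touched a LAD, while 26.0% of all protein-coding genes were inside or cut. Separately, 2 of 7 were inside, where the value for all genes is 22.6%, 2 of 7 were cut, where it is 3.45%, and 3 of 7 were outside, where it is 74.0%. Myf5 and Myf6 lie in the same LAD, so the 4 genes represent 3 domains. Gene length differs among the 7 and bears on these shares. Among genes under 5 kb, the size class of the 4 bHLH genes (1.88 to 4.02 kb), 42.8% were inside a LAD. Among genes of 80 to 200 kb, the class of Pax3, Pax7 and Mef2c, 10.1% were cut and 24.9% were inside or cut. With 7 genes in 1 list, these counts describe the genes and test nothing.

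**Figure D1:**
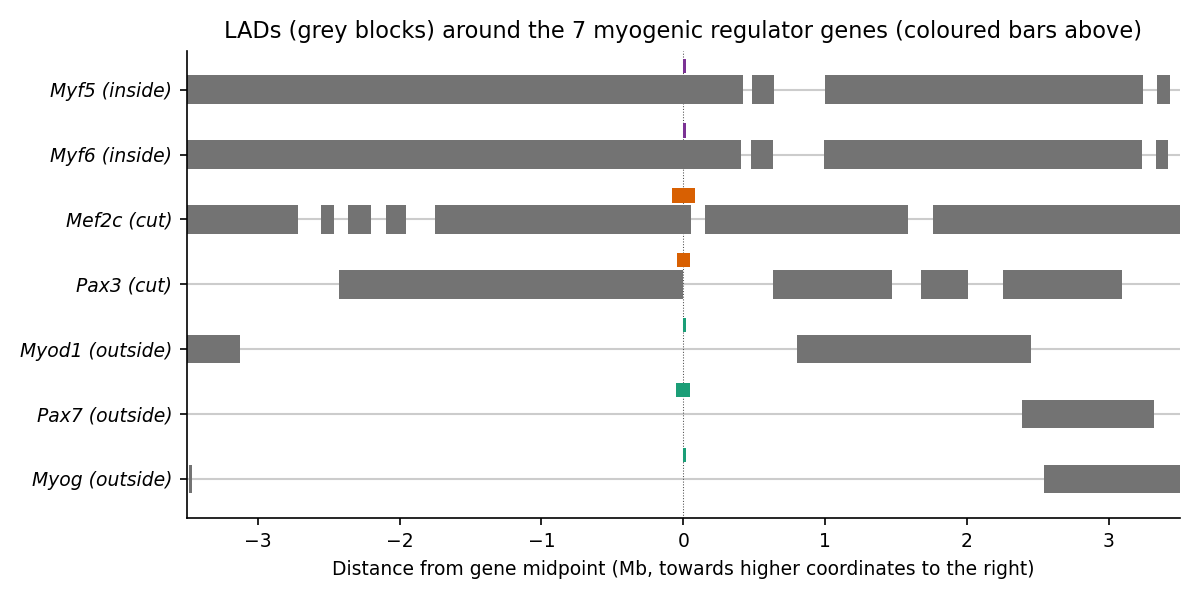
Position of LADs (grey blocks) within 3.5 Mb of the midpoint of each gene. The x axis is the distance from the midpoint in Mb, each row is 1 gene, and the coloured bar above the blocks is the gene body (short genes are drawn at a minimum width). Myf5 and Myf6 sit over a continuous block, the blocks end under Pax3 and Mef2c, and Myod1, Pax7 and Myog have no block within 0.8 Mb.

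The promoter sequences of genes on either side of this division are shown because they carry the start of transcription that the LAD does or does not cover. RefSeq windows (GRCm38.p6) matched 4 of the 7 genes, Myf5, Myog, Pax7 and Mef2c. The 250 bases before the start site are printed 5′ to 3′, in lower case with every E-box (CANNTG, a pattern that reads the same on both strands) in capitals. The first pair have their start site in a LAD and the second pair outside. For Mef2c the window of the lowest-coordinate of 3 start sites is given.
Myf5, chr10:107486135-107486384, minus strand: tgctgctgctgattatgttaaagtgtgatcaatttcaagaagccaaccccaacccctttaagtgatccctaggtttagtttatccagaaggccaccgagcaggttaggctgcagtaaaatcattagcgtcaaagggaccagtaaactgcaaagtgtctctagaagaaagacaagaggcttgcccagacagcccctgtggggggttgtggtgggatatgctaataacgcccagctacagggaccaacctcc
Mef2c, chr13:83503784-83504033, plus strand: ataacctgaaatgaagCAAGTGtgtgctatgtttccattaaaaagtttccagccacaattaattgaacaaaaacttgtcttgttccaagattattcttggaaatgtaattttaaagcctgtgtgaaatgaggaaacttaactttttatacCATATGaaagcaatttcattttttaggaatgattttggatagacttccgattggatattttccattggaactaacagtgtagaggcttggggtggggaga
Myog, chr1:134289754-134290003, plus strand: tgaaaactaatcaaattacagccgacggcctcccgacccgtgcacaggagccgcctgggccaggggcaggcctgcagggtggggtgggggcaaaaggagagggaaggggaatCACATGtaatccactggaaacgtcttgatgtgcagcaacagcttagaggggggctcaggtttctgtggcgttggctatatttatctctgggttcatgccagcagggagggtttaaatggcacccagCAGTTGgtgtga
Pax7, chr4:139832969-139833218, minus strand: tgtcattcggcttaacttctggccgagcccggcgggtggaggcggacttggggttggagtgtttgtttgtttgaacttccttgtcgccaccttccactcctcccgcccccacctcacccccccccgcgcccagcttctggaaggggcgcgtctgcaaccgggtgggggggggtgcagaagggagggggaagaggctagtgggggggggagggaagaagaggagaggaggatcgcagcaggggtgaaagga

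The start site of Myf5 lay 417 kb inside its LAD, and all 3 Mef2c start sites were inside theirs, at 137, 117 and 67.0 kb from the border. The Myog and Pax7 start sites were 2545 and 2338 kb from the nearest LAD. Over all protein-coding promoter windows, 23.0% had the start site in a LAD. Windows in LADs were poorer in GC, with a median of 44.8% (quartiles 37.2% and 52.4%, 4744 windows) beside 58.0% (50.8% and 65.6%, 15862 windows) outside. The printed Mef2c window had 33.6% GC and 1 CpG, and Myf5 had 48.8% and 3 CpG. Myog had 56.4% with 7 CpG, and Pax7 had 65.2% with 13 CpG. Of all windows, 3.63% had less GC than this Mef2c window and 77.8% less than Pax7. The printed window was the poorest in GC of the 3 Mef2c windows. The others, in coordinate order, had 44.8% with 6 CpG and 49.6% with 4 CpG. Less GC than in these was found in 18.9% and 31.2% of all windows.

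The CpG count was also divided by the count expected from base composition. The ratio was 0.202 for Myf5, 0.372 for Myog and 0.516 for Pax7. The 3 Mef2c windows, in coordinate order, had 0.149, 0.484 and 0.261. The medians were 0.199 for windows in LADs and 0.631 for those outside, so Myog and Pax7 lay below the median of the windows that share their placement. The second Mef2c window, in a LAD, exceeded Myog. E-boxes were counted in the same windows: 2 in Myog (CACATG and CAGTTG), 2 in the printed Mef2c window (CAAGTG and CATATG), 1 in the third (CAGATG), and 0 in Myf5, Pax7 and the second Mef2c window. At least 1 E-box was present in 62.9% of all windows and at least 2 in 28.6%, so these matches are common and describe letters only.

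**Figure D2:**
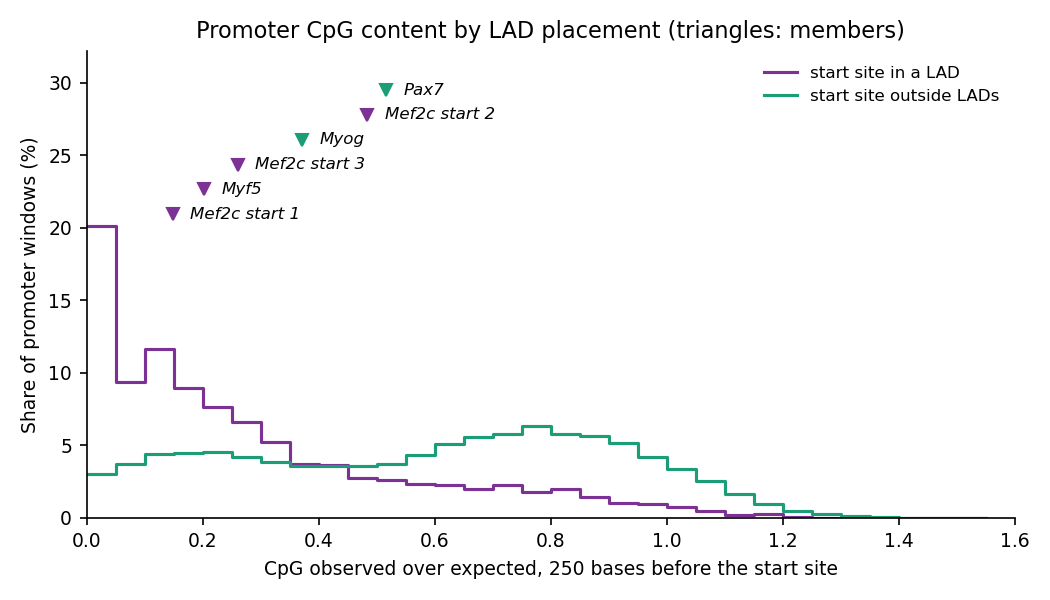
CpG observed over expected in the 250 bases before start sites (x axis, a ratio) against the share of promoter windows in percent (y axis), for start sites in a LAD and outside. Triangles mark the windows of the 4 members with a tabulated start site, at heights chosen only to separate the names. Myf5 (0.202) and the first Mef2c window (0.149) lie near the LAD median of 0.199, and Pax7 (0.516) lies under the outside median of 0.631.

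Myf5 and Myf6 shared the deepest placement. Myf5 occupies chromosome 10 from 107482908 to 107486927 (mm10) and Myf6 from 107492848 to 107494723, 5.92 kb apart. Their LAD ran from 100050764 to 107903238, a length of 7852 kb that ranked 6 among the 1437 domains. Both genes stood near its high-coordinate end, Myf5 at 416 kb and Myf6 at 409 kb from that border, and 7432 and 7442 kb from the other. The LAD held 35 protein-coding genes, or 4.46 per Mb, close to the 3.92 per Mb of all LADs together. The nearest of these were Lin7a, 57.8 kb below Myf5, and the receptor phosphatase gene Ptprq, 19.6 kb above Myf6, both wholly inside. At the ends of the domain, Kitl and Otogl were cut by its borders. The gap after the LAD was 67.5 kb, near the smallest in the list (52499 bp), and was followed by a LAD of 155 kb.

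Pax3 was divided by a border almost at its middle. The gene occupies chromosome 1 from 78101267 to 78197136, and the LAD from 75719762 to 78149753 ended within it. Of its length of 95.9 kb, 48.5 kb (50.6%) lay inside and 47.4 kb outside. The gene midpoint was 0.552 kb inside the border. LAD lengths in this list fall on steps of 2.5 kb, so the side on which the midpoint lies is below the resolution of the list. No strand was used for Pax3, so its ends are described by coordinate: the low-coordinate end lay 48.5 kb inside the border and the other end 47.4 kb outside. The LAD measured 2430 kb and held 2 protein-coding genes, Pax3 and Epha4, an ephrin receptor gene 586 kb away that was wholly inside. The gap beyond the border was 630 kb, and 6 other genes lay in it: Gm2102, Sgpp2, Farsb, Mogat1, Acsl3 and Utp14b. The next LAD began 583 kb beyond Pax3.

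Mef2c was the only protein-coding gene of its LAD. It spans 163 kb of chromosome 13, from 83504017 to 83667079, and the LAD from 81835583 to 83640576 covered 83.7% of it (137 kb). The remaining 26.5 kb, at the end away from the start sites, reached into a gap of 100 kb. The next LAD began 73.5 kb beyond the gene and measured 1430 kb, with Tmem161b as its only protein-coding gene, 555 kb from Mef2c. No other protein-coding gene lay in the gap. The density in the Mef2c LAD was 0.554 protein-coding genes per Mb, under that of the Pax3 LAD (0.823) and of the Myf5 and Myf6 LAD. On the other side the nearest gene was Cetn3, 1710 kb away and outside LADs.

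Myod1, Myog and Pax7 stood in long gaps. Myod1 (chromosome 7, 46376474 to 46379092) had the nearest LADs 3124 kb below and 801 kb above it. Its gap measured 3.93 Mb and held 176 protein-coding genes, 44.8 per Mb, the highest density around any of the 7 and above the 12.3 per Mb of all gaps together. Its neighbours were the potassium channel gene Kcnc1 at 17.1 kb and Otog at 65.0 kb. Of all protein-coding genes outside LADs, 51.3% were nearer to a LAD than Myod1, so its distance was close to the median of 760 kb.

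Myog and Pax7 were farther out. Myog (chromosome 1, 134290004 to 134292548) was 3463 kb from the LAD below, a domain of only 17.5 kb, and 2542 kb from the one above. Its gap of 6.01 Mb held 99 protein-coding genes. Ppfia4 lay 4.23 kb and Adora1 54.5 kb away. Pax7 (chromosome 4, 139737059 to 139833530) was 8079 and 2337 kb from its flanking LADs, in a gap of 10.5 Mb that ranked 10 among 1416 gaps and held 206 protein-coding genes. Its neighbours were the taste receptor gene Tas1r2 at 66.8 kb and Klhdc7a at 129 kb. Over 2000 kb from both flanking LADs were 15.1% of all protein-coding genes, Myog and Pax7 among them.

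Several muscle genes shared these gaps. The Myog gap also held Mybph, a myosin-binding protein gene 88.8 kb from Myog, the slow troponin I gene Tnni1 at 1490 kb and the calcium channel gene Cacna1s at 1760 kb. The Myod1 gap held Mybpc2, another myosin-binding protein gene, at 1850 kb. The Pax7 gap held Id3, an inhibitor of bHLH factors, at 3590 kb. Among the lists examined, no further gene shared a gap or LAD with a member other than Myf5 and Myf6 with each other.

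The share of LAD in windows around each gene describes the surroundings without a placement rule. In 1 Mb around the midpoint, LADs covered 93.2% for Myf5, 93.2% for Myf6, 90.0% for Mef2c, 50.1% for Pax3 and 0% for Myod1, Myog and Pax7. The median over all protein-coding genes was 8.75%, with quartiles of 0% and 58.1%. The value of Myf5 exceeded that of 89.4% of genes and the value of Mef2c that of 88.0%. A value of 0% was shared by 45.9% of all genes. In 2 Mb, Mef2c had the highest cover, 95.0%, and Myod1 reached 9.89%. In 5 Mb, Myog still had 0% and Pax7 2.30%, where the lower quartile of all genes was 15.6%. In 10 Mb the 7 genes ran from 23.8% for Pax7 to 86.7% for Mef2c.

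**Figure D3:**
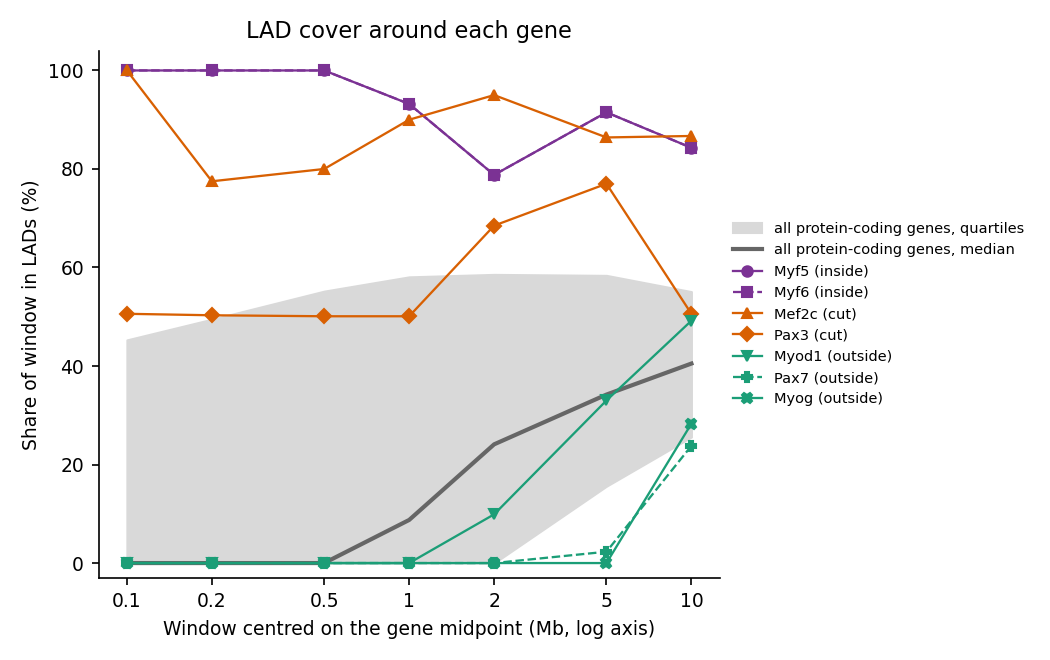
Share of the window covered by LADs in percent (y axis) against window size in Mb (log x axis), centred on each gene midpoint. The grey line and band are the median and quartiles of the 21122 protein-coding genes, and each coloured line is 1 member. Myf5, Myf6 and Mef2c stay above the band at every size, whereas Myog and Pax7 are at 0% up to 2 Mb.

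Genes on other chromosomes were ranked by likeness, the share of 200 bins of 10 kb within 1 Mb of the midpoint that agree in lying in a LAD or not. Mef2c matched Amy2a2 in 99.5%, with 3 genes tied. For Myf5 the highest agreement was 96.5%, with Gm31035 the alphabetically first of 5 tied genes, and for Myf6 it was 96.0%, with Ccdc85a the first of 7. The Myod1 profile was matched in full by 22 genes, the first being Adnp. The LAD-free profiles of Myog and Pax7 were matched in full by 6334 and 6327 genes, so none is named.

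Relatives of the members were then placed, since genes of 1 family can differ. The other MEF2 genes, Mef2a, Mef2b and Mef2d, were all outside, at 1103, 620 and 2576 kb from a LAD, whereas Mef2c was cut. Of all protein-coding genes 74.0% were outside, so 3 genes outside are unremarkable. Of 7 other paired-box genes 3 were inside, beside 22.6% of all genes: Pax1 at 295 kb from the border, Pax6 at 427 kb and Pax9 at 475 kb. Of the 4 outside, Pax8 was nearest to a LAD (151 kb) and Pax5 farthest (2311 kb). Of 10 bHLH regulators of other lineages 5 were inside, as were Myf5 and Myf6 among the 4 myogenic bHLH genes, beside 22.6% of all genes and 42.8% of those under 5 kb. The count of 5 fell to 3 with LADs of at least 100 kb, and to 2 with at least 500 kb or with borders 50 kb inward. At these settings 25.3%, 22.2% and 22.5% of all genes were inside or cut. With gaps of at most 250 kb joined 6 were inside or cut, and with borders 50 kb outward 7, beside 29.0% and 31.3% of all genes. Among the 5 inside were the neural factors Neurod1, Neurog2 and Atoh1 and the pancreatic factor Ptf1a. Neurog2 lay only 4.53 kb and Ptf1a 13.3 kb from a border, in LADs of 97.5 and 72.5 kb, while Atoh1 lay 246 kb deep. Outside, Hand2 was nearest at 30.5 kb and the tendon factor Scx farthest at 3961 kb.

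Genes of proteins that pair with or restrain the myogenic factors were placed next. None of 12 bHLH partners and inhibitors was inside or cut, where all genes have 26.0%. They include the E-proteins Tcf3, Tcf4 and Tcf12 and the inhibitors Id1 to Id4. Their median distance to a LAD was 820 kb, from 413 kb for Id4 to 4486 kb for Id3. Of 12 upstream regulators of muscle progenitors, 2 were inside and 1 was cut. Msc (MyoR), itself a bHLH repressor of muscle genes, lay inside at 168 kb from a border, and Meox2 was cut, with 87.2% of its length in a LAD of 297 kb. The other 9 were outside, from Tcf21 at 13.4 kb to Meox1 at 6576 kb. Their share of 25.0% was near that of all genes.

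Among 10 signals that act on muscle growth, 3 were inside and 1 was cut, beside 26.0% of all genes inside or cut. The 4 became 2 with LADs of at least 500 kb. Mstn (myostatin, which limits muscle mass) lay 174 kb deep, Igf1 386 kb and Nog 62.7 kb, and Hgf had 17.1% of its length in a LAD. Of the 6 outside, Shh was nearest (65.1 kb) and Wnt1 farthest (2549 kb). None of 6 myoblast fusion genes touched a LAD, from Jam2 at 50.5 kb to Cdh15 at 5678 kb, with the fusion factors Mymk and Mymx at 2792 and 2397 kb. With gaps of at most 250 kb joined, 1 of these 6 was inside or cut. None of 6 acetylcholine receptor and junction genes of muscle touched a LAD, at distances from Chrne at 481 kb to Musk, the kinase of the neuromuscular junction, at 1563 kb.

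Of 28 contractile and calcium-handling genes, which include targets of the myogenic factors, 5 were inside, 3 were cut and 20 were outside. Their share of 28.6% was near the 26.0% of all genes, but it rested on short LADs: of the 8 genes inside or cut, 4 were so with LADs of at least 100 kb, 1 with at least 500 kb and 3 with borders moved 50 kb inward, where all genes had 25.3%, 22.2% and 22.5%. Inside were Dmd (dystrophin, 2390 kb long, wholly within a LAD of 2842 kb on X), Mybpc1, Actc1, Myl1 and Myh4. Ttn, which encodes titin, was cut with 91.7% of its length in a LAD. The remaining genes that touched a LAD were at the fast myosin heavy chain cluster of chromosome 11, in a LAD of 95.0 kb (67202961 to 67297960). Along the chromosome, Myh3 and Myh2 were outside, at 101 and 5.44 kb. Myh1 was cut with 88.3% inside, Myh4 was inside, Myh8 was cut with 66.1% inside, and Myh13, looked up for this cluster after its values were seen, was 29.1 kb outside. Of the outside genes of this list, Myh2 was nearest to a LAD and the skeletal actin gene Acta1 farthest, at 4651 kb.

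**Figure D4:**
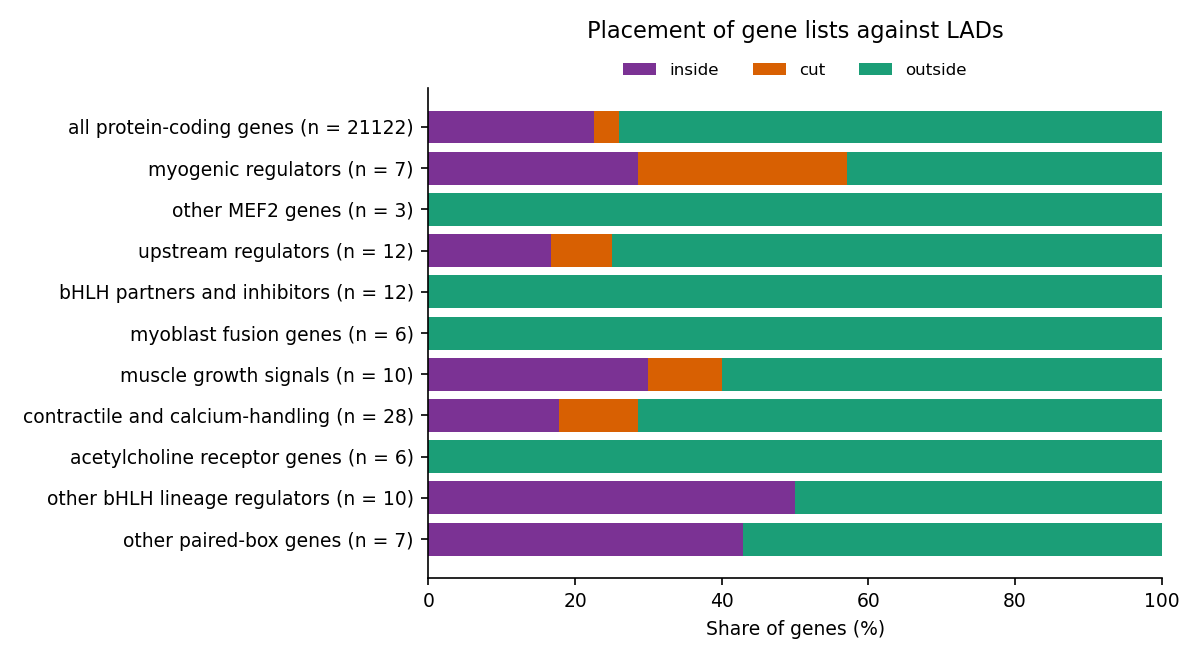
Share of genes in percent (x axis) that are inside a LAD, cut by a border or outside, for all protein-coding genes, the 7 myogenic regulators and 9 lists of related genes, with the number of genes in brackets. The partners and inhibitors, the fusion genes, the acetylcholine receptor genes and the other MEF2 genes are entirely outside, and the lists of 3 to 28 genes are too small to read small differences from.

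Together, 23 of the 94 genes of these lists (24.5%) were inside or cut, near the 26.0% of all protein-coding genes. The members' count of 4 of 7 held when only LADs of at least 500 kb were used. It could not change, since their LADs measured 7852, 2430 and 1805 kb. The count of the 94 genes fell to 10, because the LADs of Myl1, Myh4, Ptf1a and others are shorter. At that setting 22.2% of all protein-coding genes were inside or cut. The placement of Pax3 and Mef2c depended on the border: with borders moved 50 kb outward both were inside, and with borders moved 50 kb inward Pax3 was outside.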

How the data were processed

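The authors deposited 1 list of LADs in BED format, with start and end positions in base pairs, and a score that was 0 in each of the 1437 deposited lines. Bowtie2 and the build mm10 are named in the submitters' processing notes. How domains were called, with which threshold, and whether IgG or spike-in DNA entered is not given in the sources used here. Merged and wild type stand only in the list's name, from which the list was read as a pooled Lamin B1 result. Lengths were multiples of 2.5 kb to within 125 bp for 100% of domains, so borders are resolved no more finely than that step. Single libraries were not analysed, and the precision between replicates is unknown.

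Gene positions came from the RefSeq gene table (GRCm38.p6, which is the mm10 build), which gives no strand. Of 21883 protein-coding genes on the chromosomes of the list, 761 reach beyond the first or last LAD and were left out. A gene was inside when wholly within a LAD, cut when partly so, and otherwise outside, with distances from gene end to LAD border. Start sites and strand came from RefSeq promoter windows, 20606 of them without ambiguous bases, for 16975 genes (80.4% of those tested). Genes in a gap with a member are given as counts, beyond the nearest on each side. Members and lists were chosen by role with earlier results of these data known. In each list the genes inside or cut, and the outside genes nearest to and farthest from a LAD, are named, except a few that are not reported here. Computations used Python 3.11.15, numpy 2.4.6 and pandas 2.3.3. The placement code was tested on simulated domains. Alternatives were the LAD length minimum, joining of close LADs, shifted borders, the gene point, the gene set and the window.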

Additional observations from a re-analysis of the deposited data

How the results depend on the processing

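Myod1, Myf5, Myf6, Myog and Pax7 kept their placement under all 8 changes to the LADs. Lengths and distances fixed this in advance. None of these genes lay nearer than 409 kb to a border, and borders moved by at most 50 kb. The gaps around Myod1, Myog and Pax7 measured 3.93 Mb or more, and the LAD of Myf5 and Myf6 measured 7852 kb. For the same reason all 7 members kept their placement with LADs of at least 100 or 500 kb and borders moved by 10 kb. With gaps of at most 100 or 250 kb joined, 6 of 7 kept it (Mef2c became inside), with borders 50 kb outward 5 (Mef2c and Pax3 inside), and with borders 50 kb inward 6 (Pax3 outside). Mef2c reaches 26.5 kb into a gap of 100 kb, and Pax3 has 48.5 kb inside and 47.4 kb outside its border. The count inside or cut was 4 under each change except borders 50 kb inward (3), and 2 of the 4 members with a tabulated start site had it in a LAD. The Pax3 midpoint was outside with borders moved inward by 10 kb (9.45 kb) or 50 kb (49.4 kb).

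The share of all genes inside or cut was 25.3% with LADs of at least 100 kb, 22.2% with 500 kb and 29.0% with gaps of 250 kb joined. It was 26.9% and 25.2% with borders 10 kb outward and inward, and 31.3% and 22.5% with 50 kb. By midpoint it was 24.6%, by start site 24.8% and over all annotated genes 33.7%. The main share of 26.0% had an exact 95% binomial interval of 25.4% to 26.6% (counting error only). That interval treats genes as independent although many share a LAD. The 94 listed genes had 10 inside or cut with LADs of at least 500 kb and 14 with borders 50 kb inward, beside 23. Of 81 list counts under alternatives, 73 stayed within 1.5 times or stayed without any gene inside or cut. The latter came from the other MEF2 genes, the partners and inhibitors, the fusion genes and the acetylcholine receptor genes. No fold exists for these lists and their counts could not fall, so the 73 overstates stability. The members' median cover was 68.5% in 2 Mb, beside 50.1% in 1 Mb. The medians over all protein-coding genes were 24.1% and 8.75%, so they too were higher in 2 Mb.

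No paired analysis was possible because the list is merged, which also holds for leaving out a replicate.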

Other observations

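Muscle microRNA genes, looked up after the list was seen, were all outside LADs (9 of 9), where 74.0% of protein-coding genes are outside and 33.7% of all annotated genes are inside or cut. Most of them lie in neighbouring pairs that share a placement, so the 9 are fewer separate loci. Mir206 and Mir133b, which are expressed in skeletal muscle and lie next to each other on chromosome 1, were nearest to a LAD, at 127 and 130 kb. Mir1a-1 and Mir133a-2 on chromosome 2 were at 532 and 542 kb. Mir208a and Mir208b, which lie in myosin heavy chain genes, were at 1450 and 1477 kb, and Mir499 was farthest, at 3291 kb.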
